A study of Mus musculus with 50 samples.

Results

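Mammary ducts of DN-Clim mice were compared between early puberty and young adulthood. The comparison used 9 of the 50 arrays of the series, chosen by their titles as DN-Clim duct samples of 4, 8 or 10 weeks, with 3 arrays per age. The 6 older arrays were set against the 3 of 4 weeks. DN-Clim is a dominant-negative form of the Clim proteins (Ldb1 and Ldb2), cofactors that bind LIM-domain proteins and link them to transcription factors. In these mice a keratin 14 promoter drives it, so its expression is targeted to the basal layer. All mice, WT controls included, were of CB6F1 origin, and the study also calls the background of the DN-Clim line mixed. Ducts were laser captured from frozen sections of the mammary gland so as to take as little stroma and fat as possible. Mice of an age were littermates, so that age and litter cannot be told apart in any value below. Further arrays served for comparison only, namely 2 DN-Clim duct arrays of 6 weeks, 7 WT duct arrays of 4, 8 and 10 weeks, 9 arrays from DN-Clim terminal end buds (TEBs) of the same ages, and 2 arrays each of basal and luminal cells sorted from DN-Clim glands of 10 weeks.

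During puberty the mouse mammary tree grows from TEBs, the bulbous tips that advance through the fat pad, while the duct behind them forms a bilayer of luminal cells surrounded by basal, or myoepithelial, cells. Ovarian and pituitary hormones drive this growth, in large part through paracrine signals such as amphiregulin, which a hormone-sensing subset of luminal cells sends to its neighbours. As the tree fills the fat pad, TEBs regress and the ducts become quiescent.

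The captured material carried the markers of both duct layers at every age. Krt8 and Krt18, the keratins of luminal cells, had intensities of 7398 to 14251 and 6555 to 10102 on the 9 arrays. Krt14 and Krt5, the keratins of basal cells, were between 1064 and 2061 and between 1017 and 2811. Intensities are the linear values of the deposited table. Markers of other cells were also present, and their mean log2 intensity overlapped between the ages for most lists. Endothelial markers averaged 8.94 to 9.36 on the 4 week arrays and 8.49 to 9.57 on the older ones, and none of the 17 measured differed. Lymphocyte markers (10 measured), pericyte markers (7) and nerve and glia markers (6) likewise held no gene past the test. Adipocyte markers averaged 11.24 to 11.57 at 4 weeks and 11.22 to 12.25 later, with 3 of 14 higher, but with 0 without any 1 of the 4 week arrays or replicate 2 of 10 weeks and 1 without replicate 1 of 8 or of 10 weeks. All 14 had a higher mean log2 value in the older ducts (median difference 0.34). Adipocyte markers were thus about as strong as pan-luminal markers, which averaged 11.15 to 11.30 at 4 weeks and 11.25 to 11.71 later. Basal markers averaged less, 10.58 to 10.79 at 4 weeks and 9.80 to 10.41 later. Fibroblast markers averaged 10.17 to 10.25 at 4 weeks and 9.50 to 10.19 later, with 1 of 16 lower and 0 without any 1 of the 4 week arrays. The mean log2 value was lower in the older ducts for 12 of the 16 and higher for 4 (median difference -0.37). The part of these cells in the results was not tested. In captured tissue, fewer cells of a type and less RNA per cell cannot be told apart.

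Of 13363 genes, 602 were higher and 1128 lower at 8 and 10 weeks than at 4 weeks (limma, Benjamini-Hochberg adjusted p under 0.05), which is 4.50% and 8.44% of the genes tested, or 12.9% together. These background shares stand against every count given for a group of genes. The median log2 fold change over all genes was 0.002. Differences of at least 2-fold were found in 94 of the higher and 304 of the lower genes. Of the 1730 genes called, 1487 had 6 older arrays that did not overlap the 3 of 4 weeks, a separation seen in 17.9% of all genes (6.65% with all older arrays above and 11.2% with all below). Taken alone, the 8 week arrays gave 287 higher and 431 lower genes, 2.15% and 3.23% of those tested, or 5.37% together. The 10 week arrays gave 536 higher and 1071 lower genes, 4.01% and 8.01% of those tested, or 12.0% together. Both comparisons share the 4 week arrays. The count rested on the 3 arrays of 4 weeks: without replicate 1, 2 or 3 of that age it was 1075, 794 and 668 genes.

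**Figure D1:**
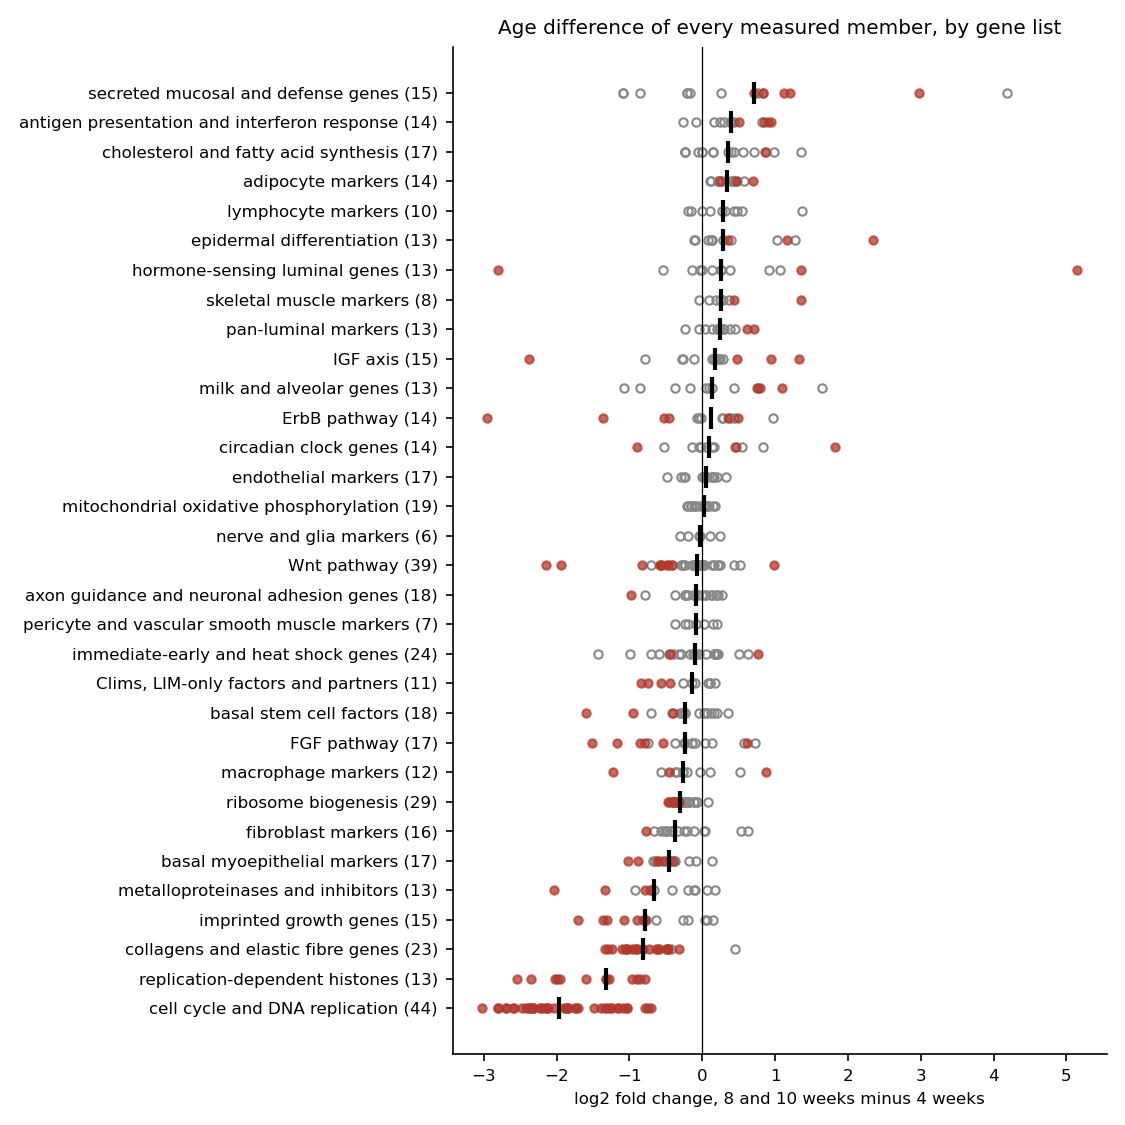
The log2 fold change (8 and 10 weeks minus 4 weeks) of every measured member is plotted on the horizontal axis for 32 gene lists, with the number measured in brackets. Filled red points passed the test (limma, adjusted p under 0.05), open points did not, and the black bar is the list's median; the cell cycle list lies wholly below 0 with a median of -1.97, and the secreted mucosal and defense list has the highest median, 0.71.

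The most uniform difference was in genes of the cell cycle. All 44 measured genes of cell cycle and DNA replication were lower in the older ducts, with a median log2 fold change of -1.97 against 0.002 over all genes, and so were all 13 measured replication-dependent histones (median -1.32). Mki67, which encodes the proliferation antigen Ki-67, had intensities of 1394, 1744 and 2241 at 4 weeks, 1159, 233 and 323 at 8 weeks, and 185, 128 and 201 at 10 weeks. All 6 older arrays were thus below the 4 week arrays, but replicate 1 at 8 weeks only just. The log2 fold change of Mki67 was -2.69 ± 0.43 (SE, adjusted p = 0.00511). Bub1, a kinase of the spindle checkpoint, had the largest fall of the list, from 490, 468 and 619 to 396, 53.2 and 69.2 at 8 weeks and 31.9, 40.7 and 36.6 at 10 weeks (-3.02 ± 0.52, adjusted p = 0.00711). Top2a, the topoisomerase of replicating cells, fell by 2.80 on the log2 scale (adjusted p = 0.0112), Ccna2, the cyclin of S phase and G2, also fell by 2.80 (adjusted p = 0.00484) and Rrm2, a subunit of ribonucleotide reductase, by 2.69 (adjusted p = 0.0137). The same order of fall was seen for Cdc25c, Kif4, E2f8 and Depdc1a, further genes of mitosis and of the E2F family, with log2 fold changes between -3.00 and -2.77. Some genes that license and copy DNA fell by less than the list's median: Mcm2 by 1.39, Pcna by 0.75 and Mcm7 by 0.70. So did Cdc20 (log2 fold change -1.24), and classes within the list were not compared. Among histones, H2ac4 fell by 2.55 (adjusted p = 0.00506) and H3c4 by 0.79 (adjusted p = 0.00495), although near-identical histone genes can share probes.

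Replicate 1 of 8 weeks stood apart from the other older arrays here. The cell cycle list averaged 9.02, 9.11 and 9.44 (log2 intensity) at 4 weeks. It averaged 8.81, 7.04 and 7.35 at 8 weeks, and 6.95, 6.67 and 6.94 at 10 weeks. Of the 44 genes, 28 had older arrays all below the 4 week arrays, a separation seen in 11.2% of all genes. At 8 weeks alone 14 of 44 were lower, and at 10 weeks alone all 44. Without that replicate all 44 were still called, and leaving out a 4 week array gave 39, 30 and 20 (without replicate 1, 2 and 3 of 4 weeks). The TEB array of the same age and number was also the highest of its group, at 8.81 against 7.83 and 6.97. At 6 weeks the 2 DN-Clim duct arrays were within the range of 4 weeks, at 9.29 and 9.15.

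Promoters of these genes were searched for short elements. TTTGAA, the core of the cell cycle gene homology region bound by the DREAM and MuvB complexes, was searched on both strands (TTTGAA or TTCAAA) of the RefSeq promoters (GRCm38.p6, 250 bases before to 50 after the gene start, 1 promoter per gene). It was present in 17 of the 36 cell cycle genes with a promoter in the table, 47.2%, against 12.1% of the 10584 tested genes. The letters CCAAT or ATTGG, the core of the NF-Y box, were found in 25 of the 36, 69.4%, against 38.0%. These are matches of letters and not measured binding sites. The 6 genes with the largest fall among those with the element wholly upstream of the gene start are shown with 30 bases of the gene's own strand, 5′ to 3′, and the element in capitals:
Top2a, chr11:99024195-99024224, minus strand: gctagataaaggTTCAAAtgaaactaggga
Mki67, chr7:135716460-135716489, minus strand: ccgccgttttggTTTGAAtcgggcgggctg
Cdk1, chr10:69352966-69352995, minus strand: ctgattggctccTTTGAAcgtctacgtgca
Kif11, chr19:37376351-37376380, plus strand: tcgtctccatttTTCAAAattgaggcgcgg
Ccnb2, chr9:70421704-70421733, minus strand: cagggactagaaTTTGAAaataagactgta
Ube2c, chr2:164769888-164769917, plus strand: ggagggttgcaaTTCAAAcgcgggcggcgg
Their log2 fold changes were -2.80, -2.69, -2.60, -2.47, -2.36 and -2.32, in this order. Cdk1, the mitotic kinase, also holds the letters ATTGG just before its element. Its intensities were 972, 932 and 1425 at 4 weeks, 1063, 135 and 237 at 8 weeks, and between 73.9 and 135 at 10 weeks, so replicate 1 of 8 weeks overlapped the younger arrays.

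Ribosome biogenesis genes moved the same way by a small amount. Of 29 measured, 9 were lower and none higher (median -0.30), among them Dkc1, the pseudouridine synthase of ribosomal RNA (-0.47, adjusted p = 0.0163), and Npm1, nucleophosmin (-0.40, adjusted p = 0.0159). That count was 0 without replicate 1 of 4 weeks, 1 without replicate 3 of 4 weeks and 6 without replicate 2 of 4 weeks or replicate 1 or 3 of 8 weeks. None of 19 genes of oxidative phosphorylation passed the test (limma; median 0.02).

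Of 14 ErbB pathway genes measured, 4 were lower and 2 higher in the older ducts. Nrg1, the neuregulin that activates ErbB3 and ErbB4, had intensities of 254, 236 and 367 at 4 weeks, 28.5, 51.5 and 31.8 at 8 weeks, and 27.5, 45.8 and 36.8 at 10 weeks. The older arrays lay far below the younger ones, an average fall of 7.80-fold (log2 -2.96 ± 0.27, adjusted p = 0.000649). In sorted DN-Clim cells Nrg1 was at 2281 and 4612 in the basal arrays and at 34.8 and 47.9 in the luminal arrays. Nrg2, a related ligand, fell from 436, 481 and 591 to 175 at the lowest and 242 at the highest of the 8 week arrays and to 162 to 195 at 10 weeks (-1.36 ± 0.14, adjusted p = 0.000888). The receptor gene Egfr was lower by 0.45 (adjusted p = 0.00974) and the feedback inhibitor Errfi1 by 0.52 (adjusted p = 0.0194). Erbb2 and Erbb3, the receptors of luminal cells, were slightly higher. Erbb2 was at 1300, 1381 and 1421 at 4 weeks and 1528 to 2164 later (0.35 ± 0.09, adjusted p = 0.0338), and Erbb3 at 2711 to 2887 and then 3300 to 5232 (0.49 ± 0.13, adjusted p = 0.0357). Both calls were lost without any 1 of the 4 week arrays or replicate 2 or 3 of 8 weeks, and that of Erbb2 also without replicate 1 of 8 weeks, with adjusted p up to 0.11 and 0.124. Areg, the amphiregulin gene, had a value of 0.38 (adjusted p = 0.525).

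**Figure D2:**
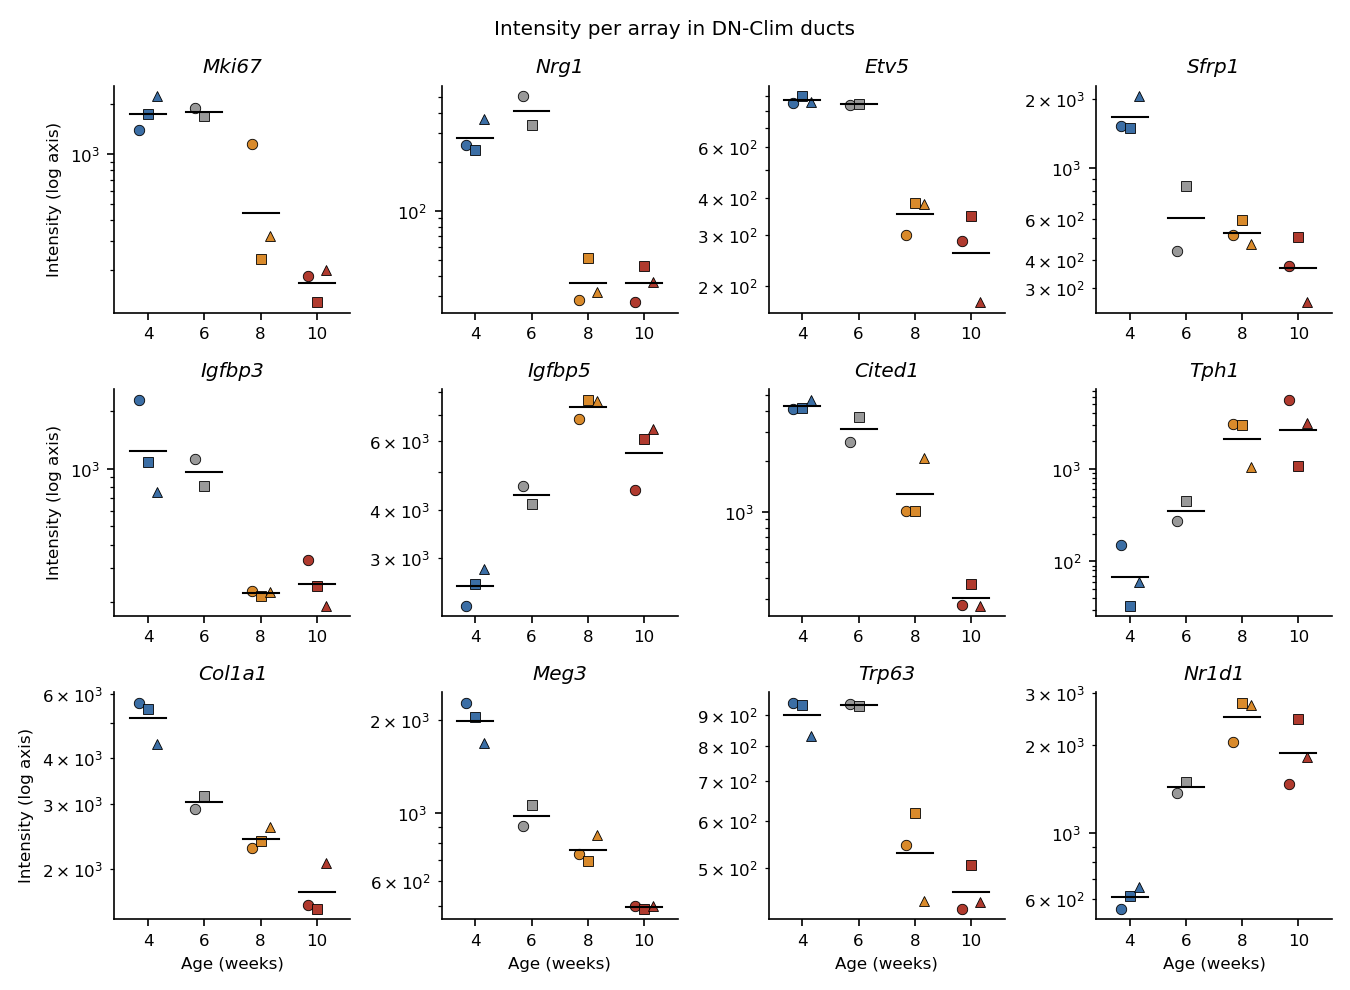
Intensity on a log axis is plotted against age for 12 genes in DN-Clim ducts, including the 2 arrays of 6 weeks that did not enter the test. Circles, squares and triangles are replicates 1, 2 and 3 and the bar is the mean of log2 values; at 6 weeks Nrg1 (503 and 334) and Etv5 (839 and 842) were near their 4 week values, while Sfrp1, Col1a1, Meg3 and Nr1d1 had already moved.

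In the Wnt pathway the secreted inhibitors showed the largest differences. Wif1, a secreted Wnt-binding inhibitor, was at 266, 228 and 418 at 4 weeks, 89.8, 83.0 and 51.1 at 8 weeks, and 68.7, 56.2 and 57.5 at 10 weeks (-2.15 ± 0.24, adjusted p = 0.00155). Sfrp1, a secreted Frizzled-related protein, was at 1536, 1504 and 2060 at 4 weeks, 513, 597 and 467 at 8 weeks, and 377, 503 and 261 at 10 weeks (-1.94 ± 0.19, adjusted p = 0.000888). For both genes the groups did not overlap, and Sfrp1 was already at 438 and 839 at 6 weeks. Of 39 pathway genes measured, 9 were lower and 1 higher, with a median of -0.07. The others that fell were Sfrp2 and Dkk3, further secreted modulators, the receptors Fzd7, Fzd2 and Lgr4, the repressor Tcf7l1 and the ubiquitin ligase Znrf3, by 0.41 to 0.83. Wnt5a, a ligand of the noncanonical pathway, was the one gene that rose, from 693, 664 and 559 to 1926, 1258 and 787 at 8 weeks and 1229, 1228 and 1374 at 10 weeks (0.98 ± 0.23, adjusted p = 0.0203). Axin2, a common target of the canonical pathway, had a value of 0.13 (95% confidence interval -0.30 to 0.55), and Lgr5 one of -0.71 (adjusted p = 0.168). The count of lower genes was 3, 2 and 2 without replicate 1, 2 and 3 of 4 weeks, 5 without replicate 3 of 8 weeks and 6 without replicate 2 of 10 weeks, and the Wnt5a call was lost without any 1 of the 4 week arrays.

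In the FGF pathway 5 of 17 genes were lower and 1 higher. The lower count was 3 without replicate 3 of 4 weeks, and the higher count was 0 without replicate 1 or 2 of 4 weeks and 2 without replicate 2 of 8 weeks or replicate 1 or 3 of 10 weeks. Etv5, an Ets factor induced by FGF receptors, was at 850, 896 and 858 at 4 weeks, 300, 385 and 382 at 8 weeks, and 286, 349 and 176 at 10 weeks (-1.52 ± 0.19, adjusted p = 0.00213). Its relative Etv4 fell by 1.17 (adjusted p = 0.00121), and the feedback genes Dusp6 and Spred1 were also lower, Dusp6 by 0.85 (adjusted p = 0.0155). Fgf1 was lower by 0.78 and Fgf2 higher by 0.61 (both adjusted p = 0.0241). Fgfr2, the main FGF receptor of mammary epithelium, was at 3989, 2555 and 2603 at 4 weeks, 5169, 4792 and 3808 at 8 weeks, and 2733, 5022 and 5963 at 10 weeks. Its groups overlapped and its value was 0.58 ± 0.24 (adjusted p = 0.149).

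In the IGF axis, 2 binding proteins moved in opposite directions. Igfbp3 was at 2295, 1081 and 751 at 4 weeks, 230, 216 and 227 at 8 weeks, and 334, 242 and 192 at 10 weeks (-2.38 ± 0.30, adjusted p = 0.00228). Igfbp5, whose protein holds IGFs in the matrix, was at 2268, 2573 and 2823, then 6829, 7663 and 7579, then 4481, 6073 and 6420 (1.33 ± 0.12, adjusted p = 0.000649). Neither gene had overlapping groups. The adaptor Irs1 (0.94, adjusted p = 0.00568) and the growth hormone receptor gene Ghr (0.48, adjusted p = 0.017) were higher, while Igf1 (0.23, adjusted p = 0.299) and Igf1r (-0.11, adjusted p = 0.694) did not pass the test.

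Among hormone-sensing luminal genes, 2 of 13 were higher and 1 lower, and they included the largest rise among called genes without overlap between the ages. Without replicate 2 or 3 of 4 weeks 1 was higher. Tph1, the rate-limiting enzyme of serotonin synthesis outside the brain, was at 152, 33.2 and 60 at 4 weeks. It reached 3067, 2977 and 1060 at 8 weeks and 5650, 1075 and 3130 at 10 weeks. The arrays of the ages were well apart, a 35.5-fold rise on average (log2 5.15 ± 0.60, adjusted p = 0.00174). Sorted DN-Clim luminal cells had Tph1 at 6816 and 2692 and basal cells at 691 and 57.2. Cited1, a transcriptional coregulator of estrogen-responsive ductal cells, went the other way, from 4125, 4176 and 4702 to 1003, 1003 and 2096 at 8 weeks and 277, 367 and 273 at 10 weeks (-2.80 ± 0.22, adjusted p = 0.000649). Prom1 was higher by 1.36 (adjusted p = 0.0108). The receptors themselves did not pass the test: Esr1, the estrogen receptor, was at 2685 to 2733 at 4 weeks and 1921 to 2876 later (-0.14 ± 0.10, adjusted p = 0.41), and Pgr, the progesterone receptor, was at 1110 to 2863 and then 2022 to 5440 (0.91 ± 0.31, adjusted p = 0.0793). The other 8 of the 13 genes measured, Foxa1, Wnt4 and Tnfsf11 among them, did not pass either.

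Matrix genes fell with near uniformity. Of 23 collagen and elastic fibre genes measured, 20 were lower and none higher (median -0.82). Col1a1, the main chain of collagen I, was at 5663, 5443 and 4384 at 4 weeks, 2276, 2381 and 2599 at 8 weeks, and 1591, 1554 and 2065 at 10 weeks (-1.33 ± 0.12, adjusted p = 0.000649). Col3a1 fell by 1.10 and Col1a2 by 1.06. Both were also non-overlapping. Fbn2, a fibrillin, fell by 1.30 (adjusted p = 0.0127), Col14a1 by 1.24 (adjusted p = 0.00369) and Eln, elastin, by 0.97 (adjusted p = 0.00484). The basement membrane collagens Col4a1 and Col4a2 fell by 0.73 and 0.63. Tnc, tenascin C, was the only member with a positive value (0.45, adjusted p = 0.444). Fibroblast markers, whose ranges are given above, had a median of -0.37 on the same arrays, and 1 of 16 passed the test, Fbln2 (-0.77, adjusted p = 0.0155). Col1a1 was at 478 and 517 in sorted basal and at 268 and 380 in sorted luminal cells, whereas Col14a1 was at 1848 and 3042 in basal and at 34.0 and 64.6 in luminal cells. The count of lower matrix genes was 13 without replicate 1 of 4 weeks and 15 to 20 without any other array, 18 of them without replicate 1 of 8 weeks.

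Metalloproteinases and their inhibitors followed with 4 of 13 lower and none higher. Adamts18, a matrix protease of the epithelium, was at 794, 580 and 533 at 4 weeks, 207, 255 and 183 at 8 weeks, and 115, 127 and 88.8 at 10 weeks (-2.04 ± 0.17, adjusted p = 0.000649). In sorted cells it was at 891 and 1376 in basal and at 18.3 and 22.8 in luminal arrays. Mmp3, stromelysin 1, fell by 1.34 (adjusted p = 0.00329), Mmp2, gelatinase A, by 0.79 (adjusted p = 0.0181) and Mmp23 by 0.70 (adjusted p = 0.00267).

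Imprinted genes that act on fetal and neonatal growth were lower in 7 of 15 cases and higher in none (median -0.78). Meg3, a maternally expressed noncoding RNA, was at 2272, 2045 and 1678 at 4 weeks, 734, 697 and 845 at 8 weeks, and 500, 488 and 499 at 10 weeks (-1.70 ± 0.11, adjusted p = 0.000337). Peg3, a paternally expressed zinc finger gene, fell from 1507, 1710 and 1306 to 546 to 957 at 8 weeks and 408 to 513 at 10 weeks (-1.36 ± 0.18, adjusted p = 0.00255). Mest, also paternally expressed, fell from 607, 477 and 402 to 133 to 201 and then 207 to 297 (-1.31 ± 0.18, adjusted p = 0.00299). For all 3 the groups did not overlap. The cell cycle inhibitor Cdkn1c (-0.90), the growth factor adaptor Grb10 (-0.81), the amino acid transporter Slc38a4 (-1.07) and Peg10 (-0.79) made up the rest. Igf2 had a value of -0.78 (adjusted p = 0.0543). This list was lower on both arrays of 6 weeks than on all of 4 weeks. It averaged 9.52 to 9.57 (log2 intensity) at 4 weeks, 8.97 and 8.91 at 6 weeks, and 8.63 to 9.01 later.

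**Figure D3:**
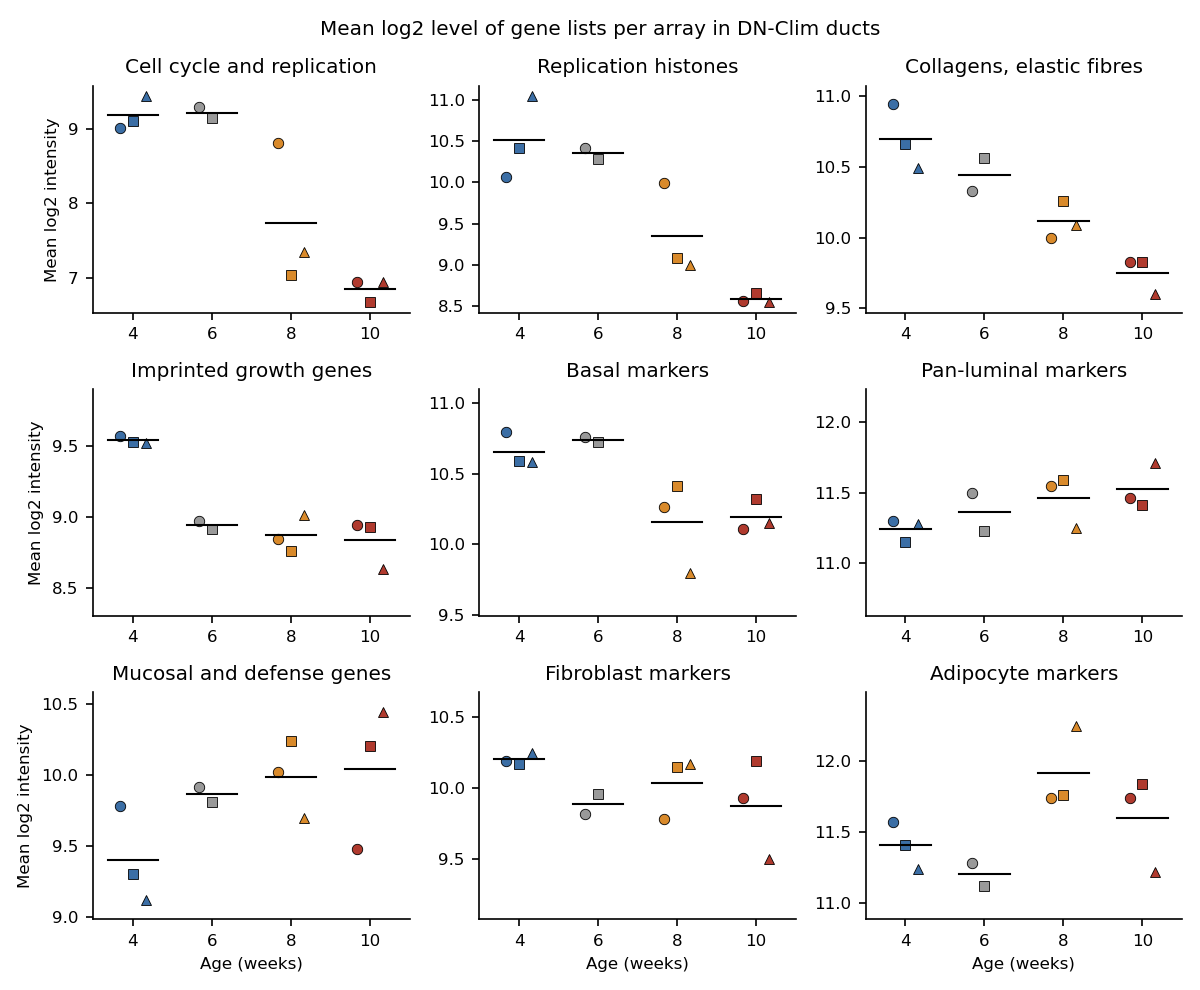
Mean log2 intensity of 9 gene lists is plotted for each DN-Clim duct array against age, with circles, squares and triangles for replicates 1, 2 and 3 and a bar for the mean of the age. Cell cycle genes averaged 9.15 and 9.29 at 6 weeks and 8.81 in replicate 1 of 8 weeks, near the 4 week arrays, while imprinted genes were at 8.97 and 8.91 at 6 weeks, below the 9.52 to 9.57 of 4 weeks.

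Among markers of the duct layers, basal ones were called more often than genes at large in the fit of all arrays, and pan-luminal ones about as often. Of 17 basal markers, 6 were lower and none higher (35.3% called, median -0.46), against 12.9% of all genes called in either direction. Of 13 pan-luminal markers, 2 were higher and none lower (15.4% called, median 0.24), which is near that share. Trp63, the p63 transcription factor of basal cells, was at 945, 937 and 831 at 4 weeks, 547, 618 and 440 at 8 weeks, and 427, 505 and 439 at 10 weeks (-0.88 ± 0.12, adjusted p = 0.00266). The contractile genes Actg2 (-1.02, adjusted p = 0.0145), Mylk (-0.60, adjusted p = 0.0117) and Acta2 (-0.54, adjusted p = 0.0376), the cadherin Cdh3 (-0.62, adjusted p = 0.0198) and the integrin Itga6 (-0.40, adjusted p = 0.0224) completed the group. Krt5 (-0.65, adjusted p = 0.0908) and Krt14 (-0.44, adjusted p = 0.164) did not pass. The count of lower basal markers was 2, 1 and 2 of 17 without replicate 1, 2 and 3 of 4 weeks. The same fits called 1075, 794 and 668 of all 13363 genes. Without replicate 2 the share of basal markers was thus about that of all genes. With so few markers called, these fits cannot show whether the excess holds. Among the luminal markers, Cldn4, a tight junction claudin, was higher by 0.61 (adjusted p = 0.0171) and Elf3, an epithelial Ets factor, by 0.71 (adjusted p = 0.0449), and neither was called without replicate 1 or 2 of 4 weeks, nor was Elf3 without replicate 3 of 4 weeks, any 1 of the 8 week arrays or replicate 2 of 10 weeks. Gata3, the luminal master regulator, had a value of 0.38 (adjusted p = 0.213). Factors linked to basal stem cells included 3 lower of 18 and none higher, 16.7%, which is also near the share over all genes. Id4, an inhibitor of basic helix-loop-helix factors, was at 1257, 1135 and 1025 at 4 weeks, 406, 446 and 319 at 8 weeks, and 439, 468 and 242 at 10 weeks (-1.59 ± 0.20, adjusted p = 0.00235), and Snai2, the Slug repressor, fell by 0.95 (adjusted p = 0.00391).

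The called genes as a whole were set against the sorted cells. Of the 1053 lower genes with an intensity of 150 or more on a sorted cell array, 345 (32.8%) were at least 2-fold higher in sorted DN-Clim basal than luminal cells and 22 (2.09%) at least 2-fold higher in luminal cells. Of the 547 higher genes, 23 (4.20%) were basal and 200 (36.6%) luminal by the same measure. Over all 12044 genes measured in both experiments the shares were 10.6% and 9.59%. The sorted groups had 2 arrays each, so these shares are given without a test, and whether the ducts held fewer basal cells or basal cells with less of these RNAs cannot be told apart.

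Among genes of the Clim complexes, the Clim genes themselves did not pass the test and some of their partners did. Ldb1, the gene for Clim2, was at 4107, 3933 and 3832 at 4 weeks and 3508 to 5775 later (0.11 ± 0.13, 95% confidence interval -0.18 to 0.41), and Ldb2, the gene for Clim1, had a value of -0.10 (95% confidence interval -0.77 to 0.57). The partner genes Lmo1 (-0.84, adjusted p = 0.011), Ssbp2 (-0.74, adjusted p = 0.00839), Lmo4 (-0.57, adjusted p = 0.0263) and Ssbp4 (-0.44, adjusted p = 0.0472) were lower, 4 of the 11 measured. Without any 1 of the 4 week arrays or replicate 3 of 8 weeks, 2 were called. Lmo1 was at 978 and 1224 in sorted basal and at 7.88 and 22.6 in luminal cells. The transgene itself was not analysed here.

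Of 15 secreted mucosal and defense genes, 5 were higher and none lower (median 0.71). Muc16, a membrane mucin, was at 9.85, 9.12 and 8.41 at 4 weeks, 15.8, 80.5 and 12.3 at 8 weeks, and 72.1, 612 and 201 at 10 weeks (2.98 ± 0.74, adjusted p = 0.0272). Its values at 4 weeks were far below the median of the arrays, and with values under 32 set to 32 it had a difference of 1.57 and was not called (adjusted p = 0.104). It was not called after quantile normalization either (adjusted p = 0.0913). Muc1 was higher by 1.20 (adjusted p = 0.0239), Muc4 by 1.12 (adjusted p = 0.019), Wfdc2, a whey acidic protein family antiprotease, by 0.84 (adjusted p = 0.0108) and Cp, ceruloplasmin, by 0.71 (adjusted p = 0.00502). Dmbt1, a mucosal scavenger protein, had a value of 4.19 and missed the threshold (adjusted p = 0.0522), with 400, 18.2 and 9.59 at 4 weeks and 108 to 2747 later. The count of higher genes was 1 and 2 without replicate 2 and 3 of 4 weeks, the latter also with 2 lower, and 7 without replicate 1 of 10 weeks. Slc5a5, the sodium-iodide symporter, which was not on that list, rose from 1408, 779 and 447 to 1942, 5456 and 1665 at 8 weeks and 4329, 5197 and 3029 at 10 weeks (2.05 ± 0.42, adjusted p = 0.0139). Slc5a7, the choline transporter, rose from 230, 23.3 and 104 to 611, 1180 and 793 and then 774, 688 and 1564 (3.42 ± 0.60, adjusted p = 0.00746), and Ache, acetylcholinesterase, was higher by 2.59 (adjusted p = 0.0148). Ctse, the protease cathepsin E, rose by 2.43 (adjusted p = 0.00418) and Bmp3, an antagonist within the BMP family, by 2.19 (adjusted p = 0.00669). Clca3a2 rose by 1.80 (adjusted p = 0.0106), but near-identical Clca genes can share its probes. Milk and alveolar genes included 3 higher of 13, namely Btn1a1 (1.09, adjusted p = 0.0112), Mfge8 (0.80, adjusted p = 0.00728) and Cd14 (0.75, adjusted p = 0.0125), while the caseins Csn2 (0.09) and Csn3 (0.05) did not pass. The count of higher milk genes was 2 and 1 without replicate 1 and 2 of 4 weeks, and without replicate 3 of 10 weeks 2 members were lower.

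Of 13 epidermal differentiation genes, 3 were higher and none lower, and 1 was higher under both other scalings of the arrays. Sprr1a, a small proline-rich envelope protein, was at 906, 454 and 312 at 4 weeks, 2908, 2164 and 2395 at 8 weeks, and 7308, 1148 and 2322 at 10 weeks (2.35 ± 0.51, adjusted p = 0.0165). Sprr1b was higher by 1.17 (adjusted p = 0.0451), Sprr2d by 0.36 (adjusted p = 0.0488) and, outside the list, Lce6a by 2.84 (adjusted p = 0.0388). Replicate 1 of 10 weeks was far above the other older arrays for this list, at a mean log2 intensity of 9.22 against 7.85 to 8.02, and Ivl, involucrin, was at 1901 on it and at 130 to 473 on the others (adjusted p = 0.272). Without that array 3 members were called. Without replicate 1, 2 or 3 of 4 weeks 1, 0 and 0 were, and without any 1 of the 8 week arrays 1. The epidermal keratins Krt1 (0.12, adjusted p = 0.526) and Krt10 (0.08, adjusted p = 0.674) did not pass.

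Of 14 genes of antigen presentation and interferon response, 4 were higher and none lower, and all 4 called belong to antigen presentation. Cd74 (0.94, adjusted p = 0.049), H2-Aa (0.90, adjusted p = 0.0472) and H2-Eb1 (0.85, adjusted p = 0.026) belong to class II presentation and Tap1 (0.50, adjusted p = 0.0194) to class I. No member was called without any 1 of the 4 week arrays, and 1 was without replicate 2 or 3 of 8 weeks. Both arrays of 6 weeks had class II values above all of 4 weeks, with H2-Aa at 889 and 1247 against 487 to 526. Outside the list, the interferon-induced gene Iigp1 was higher by 2.39 (adjusted p = 0.0017) and Ifi202b, one of a set of near-identical genes, by 2.39 (adjusted p = 0.00174). Macrophage markers gave 1 higher and 2 lower of 12: Mpeg1 was higher by 0.88 (adjusted p = 0.0265), and Cd163 (-1.22, adjusted p = 0.00135) and Csf1r (-0.46, adjusted p = 0.041) were lower. Without any 1 of the 4 week arrays or replicate 3 of 8 weeks these counts were 0 and 1.

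Of 14 circadian clock genes, 2 were higher and 1 lower. The higher count was 1 without replicate 1 or 2 of 4 weeks and 4 without replicate 1 of 8 weeks, and the lower count was 1 in every fit without 1 array. Nr1d1, the Rev-erb alpha repressor of the circadian clock, was at 554, 613 and 656 at 4 weeks, 2034, 2772 and 2725 at 8 weeks, and 1469, 2435 and 1820 at 10 weeks (1.83 ± 0.16, adjusted p = 0.000649). Nr1d2 was higher by 0.46 (adjusted p = 0.0258) and Cry1 lower by 0.89 (adjusted p = 0.00505). Per2 was at 1217 to 1463 at 4 weeks, 320 to 807 at 8 weeks and 1529 to 1658 at 10 weeks. No source used here states the hour of tissue collection. Remaining genes among the largest falls were Upk3a, a uroplakin (-3.60 ± 0.33, adjusted p = 0.000649), Stat4, a cytokine signal transducer (-3.35, adjusted p = 0.00299), Crabp1, a retinoic acid binding protein (-2.94, adjusted p = 0.00316), Sv2c, a synaptic vesicle protein (-2.94, adjusted p = 0.00564), and Hpse2, a heparanase relative (-2.78, adjusted p = 0.00409). Upk3a was at 639, 1118 and 2109 at 4 weeks and at 52.5 to 159 later, and Stat4 at 272, 1090 and 1324 and then at 50.6 to 96.2. A further gene among the 15 largest rises was Itprid1 (1.71, adjusted p = 0.00135).

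Of the other lists, cholesterol and fatty acid synthesis had 1 higher gene of 17, Acly, the citrate lyase that supplies acetyl-CoA (0.86, adjusted p = 0.0265). The count was 0 without any 1 of the 4 week arrays or replicate 2 or 3 of 8 weeks, 6 without replicate 3 of 10 weeks and 2 without replicate 1 of 10 weeks. It was 6 at 8 weeks alone and 3 after giving every array the same mean and variance. Axon guidance had 1 lower of 18, Sema3b (-0.98, adjusted p = 0.00528), and immediate-early and heat shock genes had Hspa1a higher (0.77) and Nr4a2 lower (-0.44) of 24, neither of them called without replicate 1 or 2 of 4 weeks. Skeletal muscle markers had 2 higher of 8, Myl1 (1.35) and Tnni2 (0.43), and 0 without replicate 2 or 3 of 4 weeks, with a mean log2 intensity of 7.18 to 7.28 at 4 weeks and 7.28 to 7.94 later. The 1 red blood cell marker measured, Alas2, did not pass.

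At 6 weeks the median share of the change differed between the called rises and falls, a difference that was not tested. As a description over the called genes, the mean of the 2 arrays of 6 weeks had covered a median of 47.0% of the log2 difference for the 602 higher genes and 18.8% for the 1128 lower genes. Both arrays of 6 weeks lay beyond all 3 of 4 weeks in 338 of the higher and 400 of the lower genes. This was not counted over all genes, so these 2 counts have no background share and are not read as a result. The median was 61.6% for the called imprinted genes and 41.3% for the matrix genes, and it was -3.9% for the cell cycle genes. The values at 6 weeks share the 4 week arrays with the comparison itself, by which these genes were chosen.

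Few genes had an age difference that passed the test of a difference from WT ducts. The difference between the 2 genotypes' age differences passed the test for 4 genes, 0.0299% of those tested (limma, 9 DN-Clim and 7 WT arrays), and all 4 were more negative in DN-Clim ducts. Lox, which crosslinks collagen and elastin, was at 904, 745 and 794 at 4 weeks, 377, 529 and 565 at 8 weeks, and 419, 451 and 438 at 10 weeks in DN-Clim ducts. In WT ducts it was at 773, 764 and 898, then 1562 and 1779, then 831 and 795. The difference was -1.35 ± 0.17 (adjusted p = 0.0209). Mmp3 fell in DN-Clim ducts, from 761, 866 and 1264 to 332 to 495 and then 273 to 349. In WT ducts it was at 408 to 651 at 4 weeks, 1182 and 1219 at 8 weeks and 464 and 535 at 10 weeks (difference -2.0 ± 0.27, adjusted p = 0.0235). The Fc receptor gene Fcgr2b (-1.16, adjusted p = 0.0253) and Arhgef10 (-0.85, adjusted p = 0.0445) had the same form. For all 4 the WT level was highest on the 2 arrays of 8 weeks. Those arrays resembled each other more than any other 2 arrays of a group (Pearson r over probe sets 0.990, against 0.983 at most elsewhere). Replicate 2 of the WT ducts at 8 and at 10 weeks also carries a description that names TEBs, although title and tissue say duct, and without them 7 genes were called, all more negative. Leaving out either WT array of 8 weeks left 0 called, leaving out WT replicate 1 of 10 weeks, whose skeletal muscle markers averaged 11.19 against 7.39 to 7.93 on the other 6 WT arrays, gave 69. The count was also 0 without replicate 1 of the WT ducts of 4 weeks or replicate 2 or 3 of the DN-Clim ducts of 4 weeks, and it reached 83 without replicate 2 of the DN-Clim ducts of 10 weeks.

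**Figure D4:**
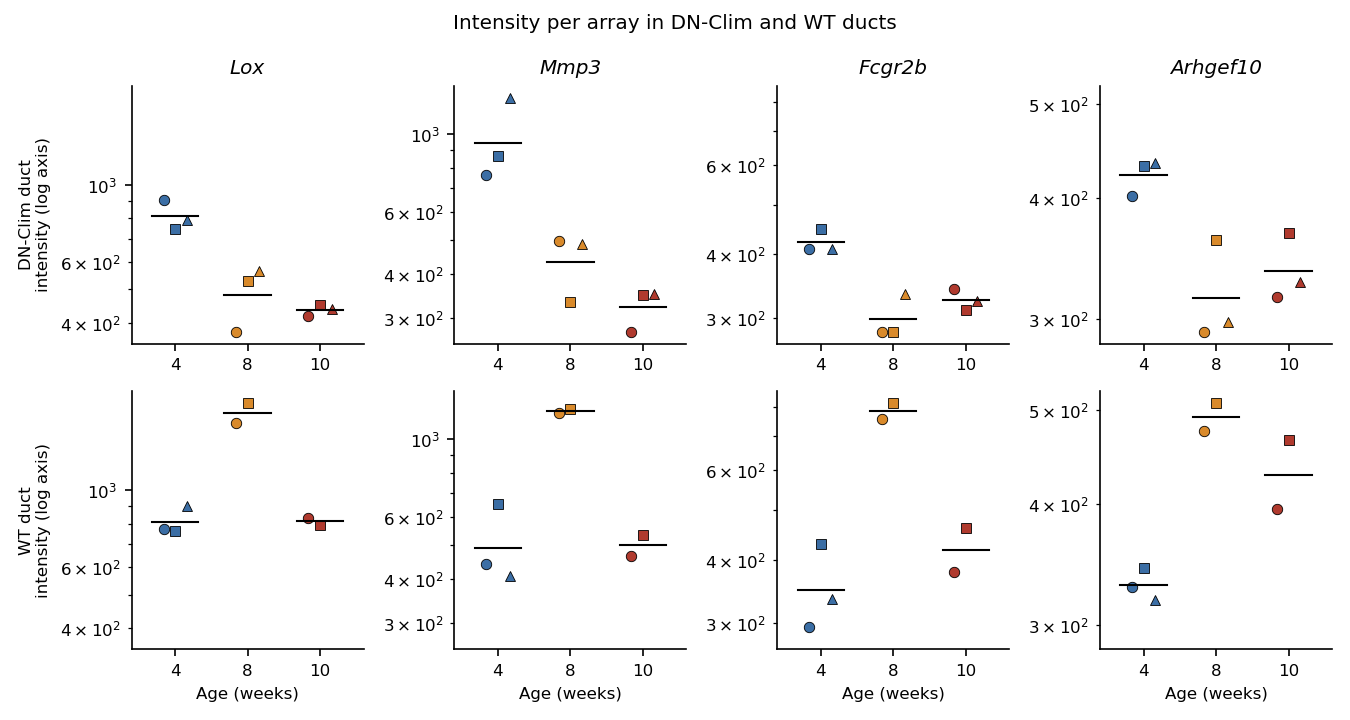
Intensity on a log axis is plotted against age for the 4 genes whose age difference was called different between genotypes, with DN-Clim ducts in the upper row and WT ducts in the lower row. Circles, squares and triangles are replicates 1, 2 and 3 and the bar is the mean of log2 values; WT arrays of 8 weeks, such as Lox at 1562 and 1779, lie above the other WT arrays of the gene.

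Median log2 age differences were -1.97 in DN-Clim and -2.04 in WT ducts for the cell cycle list, and -1.32 and -1.78 for histones. They were -0.82 and -0.45 for matrix genes, -0.66 and 0.41 for metalloproteinases and their inhibitors, and -0.78 and 0.04 for imprinted genes. All 15 imprinted genes had a more negative value in DN-Clim ducts, with a median difference of -0.44 and none called. Markers of stroma ran the same way in the same arrays, with all 16 fibroblast markers (median difference -0.70), all 17 endothelial markers (-0.66) and all 7 pericyte markers (-0.74) more negative, against 0.002 over all genes. Their part in the imprinted and matrix values was not tested. Tph1 had a difference of 3.71 ± 1.03 (adjusted p = 0.16), Mest of -2.09 ± 0.37 (adjusted p = 0.0576), Sfrp1 of -1.41 ± 0.25 (adjusted p = 0.0576) and Sprr1a of 3.32 ± 0.78 (adjusted p = 0.0964), and none passed.

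Against DN-Clim TEBs, no gene passed the test of the difference in age differences when each array was taken as independent (limma, 0 of 13363, with 700 at an unadjusted p under 0.05 and a lowest adjusted p of 0.385). The 10 genes of lowest p, all at that adjusted value, were Prkg1, Nt5e, Vcam1, Adam33 and Abcb1a, with differences of -0.90 to -0.79, and Traip, Lrp8, Snrpd1, Hmgb1-rs17 and Gpx2, with differences of 0.63 to 1.21. Duct and TEB arrays of the same age and number deviated together, with correlations of 0.429 to 0.835 in all 9 pairs. The labels do not say that such a pair is 1 mouse. With each pair taken as 1 mouse and the mouse as a random block, 209 genes were called, 1.56% of those tested. Of these, 55 were more positive in ducts (0.412% of those tested) and 154 more negative (1.15%). Wnt5a rose in ducts but in TEBs was at 1294, 1624 and 1942 at 4 weeks, 1735, 1319 and 695 at 8 weeks, and 1102, 1121 and 1483 at 10 weeks (difference 1.40 ± 0.23 with the block, adjusted p = 0.00751). Sprr1a rose in ducts from a level that TEBs already exceeded at 4 weeks, 3037, 2872 and 1582 (2.45, adjusted p = 0.0132), and Sprr1b behaved alike (1.25, adjusted p = 0.04). Timp1, a metalloproteinase inhibitor, was at 501, 269 and 305 in ducts of 4 weeks and 195 to 429 later, whereas in TEBs it was at 1403, 1236 and 936 and then at most 437 (1.86, adjusted p = 0.0127). The serpin gene Serpinb11 (2.58, adjusted p = 0.0433), Neto2 (1.47, adjusted p = 0.0266) and Lhfpl1 (1.34, adjusted p = 0.0425) had larger falls in TEBs. Oxtr, the oxytocin receptor of contractile basal cells, was at 1008 to 1367 in ducts of 4 weeks and 922 to 1799 later, while in TEBs it was at 462, 476 and 328 and then 761 to 1602 (-1.42, adjusted p = 0.00751). Btn1a1, butyrophilin of the milk fat globule, rose more in TEBs, from 105, 188 and 79.4 to 468 to 1000 (-1.51, adjusted p = 0.0161). The imprinted gene Zim1 fell in ducts from 683, 746 and 767 to 98 at the lowest and 471 at the highest of the older arrays and in TEBs was at 257 to 424 and then 128 to 674 (-1.61, adjusted p = 0.0127). Of the 209 genes, 85 were also called in the age difference of ducts, against 12.9% of all genes. That age difference is a part of this contrast and comes from the same duct arrays, so some overlap is built in.

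**Figure D5:**
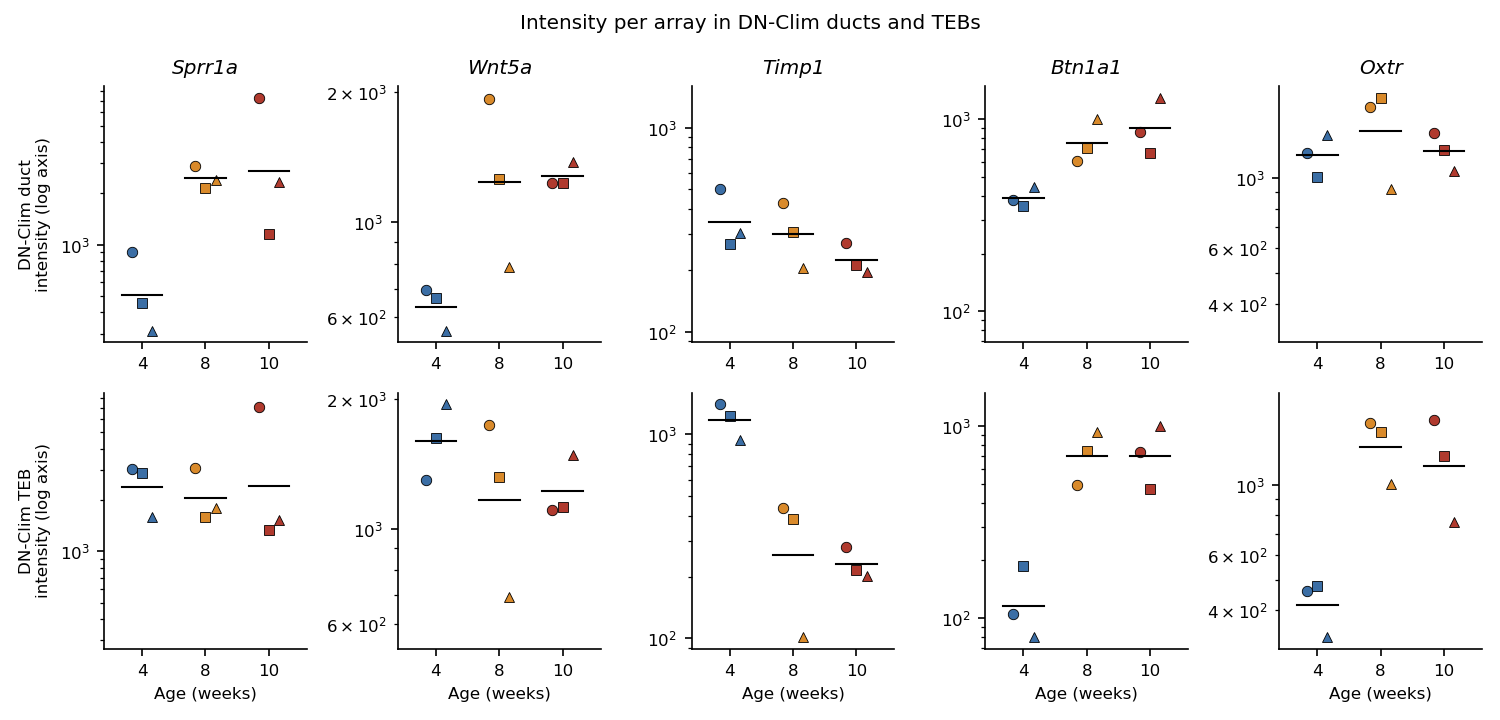
Intensity on a log axis is plotted against age for 5 genes called with the mouse as a block, with DN-Clim ducts in the upper row and DN-Clim TEBs in the lower row. Circles, squares and triangles are replicates 1, 2 and 3, taken as the same mouse in both rows, and bars are means of log2 values; at 4 weeks TEBs were above ducts for Sprr1a, Wnt5a and Timp1 and below them for Btn1a1 and Oxtr.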

How the data were processed

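RNA from laser captured epithelium and from sorted cells was hybridised to Affymetrix Mouse Gene 1.0 ST arrays, 1 array per sample. The deposited values are linear intensities, 1 per probe set, which the authors made with PLIER. The PLIER version, the background correction and any scaling across arrays were not given in the sources used here. Of 35557 probe sets, 21789 had 1 gene symbol, 1621 several and 12147 none. Intensities below 1 were set to 1 and taken to log2. The filter was an intensity of 200 or more on at least 1 of the 42 laser capture arrays, which kept 22693 probe sets. Where a gene had several probe sets, the one with the highest mean was taken, which left 13363 genes, 13334 of them with a symbol updated through RefSeq (GRCm38.p6). Areg was named from a supplementary table of the study.

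Groups were taken from the sample labels. The 9 DN-Clim duct arrays were fitted with 3 age groups in limma (version 3.58.1, R 4.3.3, empirical Bayes with a variance trend), and the contrast was the mean of 8 and 10 weeks minus 4 weeks. Adjusted p-values are Benjamini-Hochberg over all genes, with a threshold of 0.05. The contrasts with WT ducts and DN-Clim TEBs were differences of age differences in fits of both tissues or genotypes. Labels call the samples biological replicates, and 3 arrays per age limit the precision. Median intensity was 200.6 to 218.2 and each array correlated at 0.948 to 0.977 with its group.

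Members and gene lists were chosen with earlier results of these data known. Named genes were the 15 largest called increases and the 15 largest called decreases without overlap, up to 5 called members of each list with its best-known members, genes the study discusses, and the 10 largest called values of each comparison of age differences, or its 10 lowest p-values where none was called; genes known only as predictions were counted and not named. The 10 largest of the fit with the mouse block were named as well. Duct and TEB arrays of the same number were taken as 1 mouse because their deviations from the group means correlated in all 9 pairs (0.429 to 0.835). The labels do not say so, and whether something else shared by a pair gave the correlation was not tested. Numbers across ages did not pair (-0.08 to 0.218). Alternatives were another scaling, filter, floor, model, fold rule or probe set choice, Cyber-T, and leaving out each array. List counts without single arrays were added after seeing the data. The scripts were tested on simulated data. No column lacked a sample.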

Additional observations from a re-analysis of the deposited data

Results flagged for a closer look

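In 5 of 32 gene lists, 1 of the 6 older DN-Clim duct arrays stood far from the others in mean log2 intensity. Chance would flag about 1 list in 20 if the 6 arrays came from 1 population. They were of 8 and of 10 weeks, so that rate need not hold here. Replicate 1 of 8 weeks was highest for cell cycle and DNA replication (8.81) and for replication-dependent histones (9.99). Replicate 1 of 10 weeks was highest for epidermal differentiation (9.22). Replicate 3 of 10 weeks was lowest for cholesterol and fatty acid synthesis (9.69) and for mitochondrial oxidative phosphorylation (10.52). Lists measured on the same arrays are not independent of each other.

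The age difference of 4 genes differed between DN-Clim and WT ducts by the test of the difference itself (limma, adjusted p under 0.05). The values were -2.0 for Mmp3, -1.35 for Lox, -1.16 for Fcgr2b and -0.85 for Arhgef10, DN-Clim minus WT on the log2 scale. Of 16 fits that each left out 1 array, 10 called Mmp3, 11 Lox, 9 Fcgr2b and 8 Arhgef10.

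With the mouse as a random block, the age difference of these named genes differed between DN-Clim ducts and TEBs. It was more positive in ducts for Serpinb11 (2.58), Sprr1a (2.45), Timp1 (1.86), Neto2 (1.47), Wnt5a (1.40), Lhfpl1 (1.34) and Sprr1b (1.25). It was more negative in ducts for Zim1 (-1.61), Btn1a1 (-1.51) and Oxtr (-1.42). None was called without the block.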

How the results depend on the processing

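The count of genes that differed with age in DN-Clim ducts was 1730. It lay between 1487 and 2228 under the other scalings, filters and models that kept all arrays and tested genes, except that array weights gave 3809 and a rule of 1.5-fold with p under 0.01 before adjustment gave 1001. It ran from 668 to 1949 when 1 array was left out. No shared call changed direction under any of them. Testing every probe set gave 855 higher and 1456 lower. Of the 126 called genes that the naming rule takes, 61 were called in every fit without 1 array. The count of 4 against WT ducts was 1 after giving every array the same mean and variance, 2 after quantile normalization, 7 without the 2 WT arrays of conflicting labels, and 0 to 83 without 1 array, and the cause was not tested. Against TEBs the count was 0 in every fit without the mouse block, those without 1 array included.

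With the replicate number as a block the counts were 1487 for the age difference, 514 for 8 weeks, 1380 for 10 weeks and 6 against WT ducts. These numbers do not pair samples across ages. For ducts and TEBs, where they did pair, the mouse block gave 209. Mice of an age were littermates, so litter and age cannot be told apart, and scan dates were not known.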
